A study of Mus musculus with 8 samples.

Results

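Cells carrying the deletion mutant delFG2 of the leukaemia fusion NUP98-HOXA9 were compared with cells carrying the mutant delFG1. The comparison rested on 4 of the 8 arrays of the series, 2 with each mutant, chosen by their titles, and on 21789 probe sets with 1 gene symbol of 28853 in the deposited table. Every array held total RNA from C57BL/6 mouse cells, and the 4 groups of 2 arrays were cells with an empty vector, with full-length NUP98-HOXA9, with delFG1 and with delFG2. The design sets 2 deletion mutants beside the full-length fusion, and the direct comparison of the mutants asks where the 2 deletions differ. The labels do not say what the deletions remove, what type the cells are, from which species the cDNA came or what promoter drives it. The 2 arrays of a group carry the numbers 1 and 2, and no label ties them to separate cultures. A p-value here therefore reflects the spread between these arrays alone, and that spread may be technical.

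NUP98 is a nuclear pore protein whose phenylalanine-glycine (FG) repeats bind transport receptors and, in leukaemia fusions, transcriptional coactivators. In NUP98-HOXA9 the repeats are joined to the homeodomain of HOXA9, a DNA-binding factor of early blood progenitors. Such fusions are known for keeping the Hoxa cluster, Meis1 and Pbx3 active and for holding back myeloid maturation. Granule enzymes, chemokine receptors and inflammatory cytokines are products that myeloid cells make as they mature. The labels name no cell type. The myeloid granule enzymes Mpo and Elane had levels between 12.96 and 13.27 in the 4 mutant arrays, on the log2(intensity + 1) scale that holds for all levels below. In bulk RNA, fewer cells of a type and less RNA per cell cannot be told apart.

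The mutants differed at few genes. With delFG2, 88 probe sets were higher (0.404% of those tested) and 29 were lower (0.133%) than with delFG1, at an adjusted p under 0.05 in limma. These 117 calls (0.537%) covered 113 symbols. The shares of 0.404% higher and 0.133% lower are the background for the counts of each gene list below. The higher genes included the platelet chemokines Ppbp and Pf4, the stefins Stfa3, Stfa2, Csta3 and Cstdc6, the neutrophil genes Mmp9, Mmp8, Cxcr2 and Olfm4, the cytokine Il6 and the granule protease Gzmb. The lower genes included the homeobox genes Hoxa5 and Hoxa7, the membrane protein gene Tmem47, the prostaglandin-degrading enzyme Hpgd and the adhesion receptor Vcam1. The differences were moderate, with a median of 0.62 on the log2 scale over the higher calls and -0.72 over the lower calls, and 8 higher and 6 lower calls reached 2-fold.

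These calls came from a fit that takes the array number as a block, so that each delFG2 array is set against the delFG1 array of the same number. Without that block limma called 0 probe sets, the lowest adjusted p was 0.0975, and 683 probe sets had an unadjusted p under 0.05 against 1758 with it. The single arrays mattered as much: 1 probe set was called higher and 0 lower without delFG1 array 1, 5 higher and 3 lower without delFG2 array 1, and 3 higher and 0 lower without delFG2 array 2. Without delFG1 array 2 the counts were 66 higher and 40 lower, and without a full-length array they were 40 and 11 or 31 and 11. Without either empty vector array they were 250 or 249 higher and 63 lower. No gene was called in all 8 of these fits, Stfa2 and Ppbp were called in 7, and Slfn4 and Stfa3 in 6.

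The called genes moved the same way in both numbers, in 117 of 117 cases. The fit that chose the calls used these same arrays, which favours such agreement. This count and the overlap counts of the calls below are therefore a description only. Over all probe sets the difference in arrays numbered 1 and that in arrays numbered 2 had the same sign in 54% and a Pearson correlation of 0.294 across genes, which are not independent replicates. Both delFG2 arrays lay above both delFG1 arrays in 52 of the 88 higher calls, and below both in 28 of the 29 lower calls. Over all probe sets, 11.7% had delFG2 arrays above and 15.3% had them below both delFG1 arrays. The arrays numbered 2 also differed from those numbered 1 at many of these genes: 73 of the 88 higher calls were higher, and 2 lower, in the arrays numbered 2 over the 4 groups, against 1400 higher and 1035 lower of 21789 probe sets in all. The part of that number difference in the calls was not tested.

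**Figure D1:**
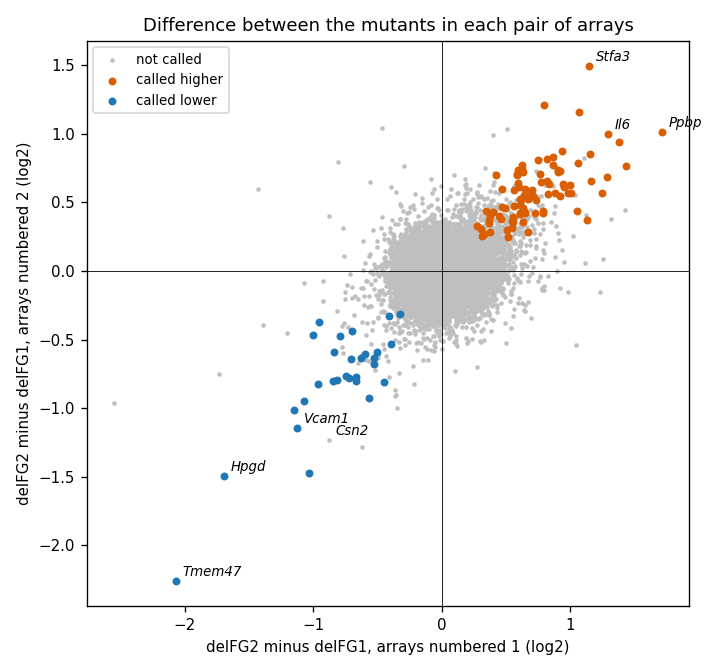
Each point is 1 probe set, with the log2 difference of delFG2 minus delFG1 in the arrays numbered 1 on the horizontal axis and in the arrays numbered 2 on the vertical axis. The 88 higher calls (orange) lie in the upper right and the 29 lower calls (blue) in the lower left, while grey probe sets spread around 0 in both.

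The largest rise was in Ppbp, which encodes a platelet chemokine precursor. Its levels were 7.72 and 7.78 in the delFG1 arrays and 9.43 and 8.79 in the delFG2 arrays, in the order of their numbers, so the groups did not overlap. The difference was 1.36 on the log2 scale (SE 0.14, adjusted p = 0.00404 in limma), or 2.57-fold. Pf4, the neighbouring platelet chemokine gene, was at 9.12 and 8.88 with delFG1 and at 9.98 and 9.66 with delFG2. Its rise was 0.82 (SE 0.12, adjusted p = 0.0184 in limma), and again both delFG2 arrays lay above both delFG1 arrays. The integrin gene Itga2b, whose product is the platelet fibrinogen receptor subunit, narrowly missed the threshold at 0.48 (adjusted p = 0.0531 in limma). Its partner subunit Itgb3 had a difference of 0.41 (adjusted p = 0.183). Of 13 measured megakaryocyte and platelet genes, 2 rose and none fell, with a median difference of 0.27 against -0.01 over all probe sets. The mean level of these 13 genes was 7.97 to 8.03 in the delFG1 arrays and 8.28 to 8.36 in the delFG2 arrays. Without delFG1 array 1 none of the 13 was called.

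The stefins are small inhibitors of cysteine proteases such as the lysosomal cathepsins, and mouse neutrophils make several of them from a cluster of near copies on chromosome 16. Stfa3 was at 6.20 and 6.78 with delFG1 and at 7.35 and 8.27 with delFG2. It rose by 1.32 (SE 0.15, adjusted p = 0.00841 in limma), with no overlap between the mutants. Stfa2 was at 8.91 and 9.65 with delFG1 against 9.98 and 10.80 with delFG2, a rise of 1.11 (SE 0.09). It had the lowest adjusted p of the comparison, 0.00314 in limma. Csta3 rose by 0.78 and Cstdc6 by 0.82 (adjusted p = 0.0123 and 0.0343 in limma). Csta3 lay at 4.99 and 5.41 with delFG1 and at 5.74 and 6.22 with delFG2. The copies are similar enough that a probe set of 1 stefin may also bind RNA of another, so the rises of single members are uncertain.

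The start regions of 3 of these genes are shown because the members rose together and belong to 1 cluster of related copies on chromosome 16. Each is the 250 bases before the gene's start in RefSeq, build GRCm38.p6, 5′ to 3′ on the gene's strand, and Cstdc6 had no entry. Stfa3 is at chr16:36455393-36455642 and Stfa2 at chr16:36408364-36408613, both on the minus strand, and Csta3 is at chr16:36210153-36210402 on the plus strand. Capitals mark runs of at least 10 letters found in all 3.
Stfa3: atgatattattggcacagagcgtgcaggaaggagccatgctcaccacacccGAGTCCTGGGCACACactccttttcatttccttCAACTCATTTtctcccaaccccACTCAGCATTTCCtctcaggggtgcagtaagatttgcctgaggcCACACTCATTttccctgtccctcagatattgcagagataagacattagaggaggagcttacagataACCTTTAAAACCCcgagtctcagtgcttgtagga
Stfa2: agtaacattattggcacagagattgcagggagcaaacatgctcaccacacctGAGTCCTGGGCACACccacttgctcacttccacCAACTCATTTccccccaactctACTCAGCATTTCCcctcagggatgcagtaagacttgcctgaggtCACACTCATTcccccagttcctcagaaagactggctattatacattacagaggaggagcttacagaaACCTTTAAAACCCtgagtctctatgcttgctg
Csta3: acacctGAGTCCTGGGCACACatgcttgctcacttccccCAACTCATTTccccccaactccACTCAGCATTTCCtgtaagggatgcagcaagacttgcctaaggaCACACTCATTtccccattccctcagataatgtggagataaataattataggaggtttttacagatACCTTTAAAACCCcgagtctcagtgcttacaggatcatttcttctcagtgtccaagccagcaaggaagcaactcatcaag
Stfa3 and Stfa2 had the same base at 204 of 245 aligned positions (83.3%), Stfa3 and Csta3 at 172 of 203 (84.7%), and Stfa2 and Csta3 at 170 of 201 (84.6%). The shared run GAGTCCTGGGCACAC occurred on either strand in 5 of 32851 RefSeq promoters of the table (0.0152%), and the run ACCTTTAAAACCC in 8 (0.0244%). The other shared runs occurred in 9 (0.0274%), 27 (0.0822%) and 34 (0.103%). All these counts include the 3 promoters shown, from which the runs were taken. Shared letters here describe related copies and say nothing of a factor that binds them.

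Other genes of neutrophils rose with delFG2. Mmp9, the gelatinase of neutrophil granules, was at 8.58 and 9.46 with delFG1 and at 9.74 and 10.31 with delFG2, a rise of 1.0 (SE 0.13, adjusted p = 0.0138 in limma). Cxcr2, the receptor through which neutrophils follow CXC chemokines, was at 8.15 and 9.25 against 9.43 and 9.93 and rose by 0.99 (SE 0.12, adjusted p = 0.00965 in limma). In both genes the delFG1 array 2 came close to the delFG2 array 1, but the groups did not overlap. Mmp8, the neutrophil collagenase, rose by 0.79. Olfm4, a granule glycoprotein, rose by 0.81 and Itgam, the CD11b integrin chain, by 0.30 (adjusted p = 0.0174 and 0.0444 in limma). The mutant arrays overlapped in Olfm4 and not in Itgam. Mpo and Elane, granule enzymes made early in the lineage, had differences of -0.03 (95% interval -0.14 to 0.08) and -0.07 (-0.17 to 0.02).

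Over the neutrophil list 5 of 23 measured genes rose (21.7%) and none fell. The median difference was 0.24, and it was 0.33 for number 1 and 0.13 for number 2. In both numbers 16 genes were higher and 4 lower with delFG2, against 24.1% and 29.9% of all probe sets. The mean level of the list was 11.01 to 11.52 with delFG1 and 11.47 to 11.71 with delFG2, so the list as a whole overlapped between the mutants. Of its 23 genes, 15 were higher and 1 was lower in the arrays numbered 2 over the 4 groups. The part of this number difference in the list's count was not tested. Leaving out single arrays gave between 0 and 11 higher members.

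Cytokine and chemokine genes changed in both directions. Il6, an inflammatory cytokine, was at 6.48 and 7.37 with delFG1 and at 7.78 and 8.37 with delFG2. It rose by 1.15 (SE 0.11, adjusted p = 0.00404 in limma), with no overlap. The chemokine gene Ccl6, which myeloid cells express at high levels, rose by 0.42 (adjusted p = 0.0092 in limma). Ccl17, a chemokine for T cells that binds the receptor CCR4, fell by 0.64 (adjusted p = 0.0461 in limma). It was at 10.05 and 8.94 with delFG1 and at 9.26 and 8.46 with delFG2, so the mutants overlapped. The receptor gene Ccr4 fell by 0.75 (adjusted p = 0.0428 in limma), without overlap. The neutrophil chemokine Cxcl2 had a difference of 0.69 (adjusted p = 0.0943) and did not pass. Of 26 inflammatory cytokine and chemokine genes, 2 rose and 1 fell, with a median of 0.11, and leaving out single arrays gave 0 to 5 higher and 0 to 1 lower. Slfn4, a Schlafen family gene of myeloid cells, was at 7.39 and 8.32 against 8.77 and 9.26 and rose by 1.16 (SE 0.12, adjusted p = 0.0046 in limma). Of 24 interferon-stimulated genes on a fixed list that did not hold it, none was called, with a median of 0.10.

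Some genes of mast cells, basophils and eosinophils rose. Gzmb, a serine protease of cytotoxic and mast cell granules, was at 8.68 and 9.06 with delFG1 and at 9.55 and 9.89 with delFG2. It rose by 0.85 (SE 0.10, adjusted p = 0.00841 in limma), and the mutants did not overlap. The high-affinity IgE receptor chain Fcer1a rose by 0.70, the histamine-making enzyme Hdc (mutant arrays overlapping) by 0.52 and the basophil protease Mcpt8 by 0.40. These 4 were the calls among 19 measured mast cell and basophil genes (21.1%), whose median was 0.20 and whose mean level was 8.24 to 8.41 with delFG1 and 8.48 to 8.64 with delFG2. Ear6, an eosinophil-associated ribonuclease, was at 9.19 and 10.47 with delFG1 and at 9.96 and 11.11 with delFG2. Its rise of 0.71 (SE 0.07, adjusted p = 0.00404 in limma) was smaller than the gap between the arrays numbered 1 and 2 of either mutant, so the groups overlapped. Epx, eosinophil peroxidase, rose by 0.37, with overlapping mutant arrays. The granule proteins Prg2 and Prg3 had differences of 0.37 and 0.20 that did not pass. Of 8 eosinophil genes, 2 rose (25%), and 5 of the 8 were higher in the arrays numbered 2 over the 4 groups. Leaving out single arrays gave 0 to 7 higher genes on the mast cell and basophil list and 0 to 3 on the eosinophil list, and none without delFG1 array 1 or either delFG2 array.

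Of 23 measured monocyte and macrophage genes, 2 rose (8.7%) and none fell, with a median of 0.14. The scavenger receptor gene Msr1 rose by 0.60 and the lysosomal marker Cd68 by 0.30 (adjusted p = 0.0121 and 0.0375 in limma). In both genes the mutant arrays overlapped. Lysozyme 2 (Lyz2) and the mannose receptor Mrc1 had differences of 0.19 and 0.52 with adjusted p of 0.0804 and 0.0844. Csf1r, the receptor for the macrophage growth factor, differed by 0.06 (95% interval -0.21 to 0.32). In the arrays numbered 2, over the 4 groups, 12 of the 23 were higher and 1 was lower. Leaving out single arrays gave 0 to 6 higher monocyte and macrophage genes. Of 20 listed erythroid genes 13 had a probe set with 1 symbol, and among these only Rhag, a membrane protein of red cells, rose (0.72, adjusted p = 0.0174 in limma).

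**Figure D2:**
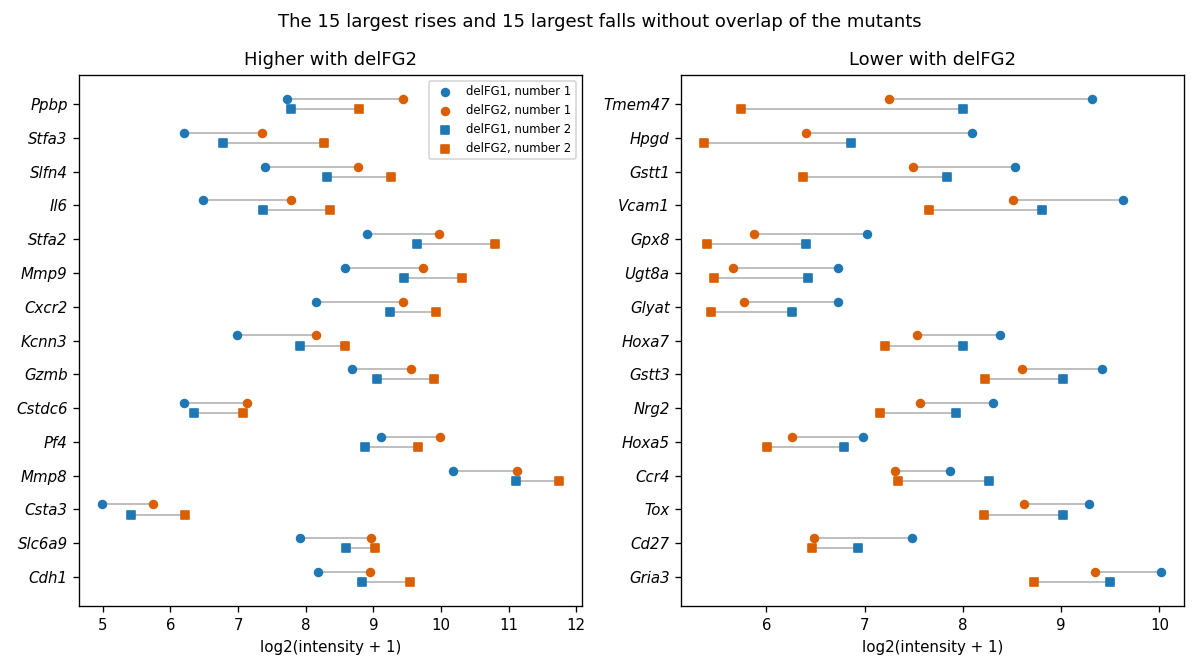
Each row is a gene, with its level in the 4 mutant arrays on the log2(intensity + 1) axis and a grey line that joins the arrays of 1 number. Among calls whose mutant arrays do not overlap, the left panel holds the 15 largest rises and the right panel the 15 largest falls. Predicted genes, the other skipped gene kinds and the dimmer probe sets of a gene are left out. Within every line delFG2 lies on the side of the panel's title.

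The largest fall was in Tmem47, which encodes a small membrane protein of cell junctions. It was at 9.31 and 8.0 with delFG1 and at 7.24 and 5.74 with delFG2, while the empty vector arrays were at 5.34 and 5.36 and the full-length arrays at 5.82 and 5.63. The fall was 2.16 (SE 0.30, adjusted p = 0.0158 in limma), or 4.48-fold. Vcam1, the ligand of VLA-4 integrin, had the same order of group means. It was at 9.63 and 8.80 with delFG1, at 8.50 and 7.66 with delFG2 and at 8.11 and 8.01 with the full-length fusion, and fell by 1.14 (SE 0.21, adjusted p = 0.0474 in limma). In Tmem47 and Vcam1 both delFG1 arrays were higher than every array of the other 3 groups.

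Several falls were in enzymes. Hpgd, which inactivates prostaglandins, was at 8.10 and 6.86 with delFG1 and at 6.40 and 5.37 with delFG2, a fall of 1.59 (SE 0.24, adjusted p = 0.0197 in limma), or 3.02-fold. Both delFG2 arrays were lower than both delFG1 arrays, and array 2 with delFG2 was as low as the empty vector arrays at 5.41 and 5.53. The glutathione transferase genes Gstt1 and Gstt3, next to each other in the genome, fell by 1.25 and 0.81 (adjusted p = 0.0379 and 0.0426 in limma). Gpx8, a peroxidase of the endoplasmic reticulum, was at 7.02 and 6.41 against 5.87 and 5.40 and fell by 1.08 (adjusted p = 0.0174 in limma). Ugt8a, which makes galactosylceramide, fell by 1.01, and Glyat, a glycine acyltransferase, by 0.89. These last 3 genes had delFG2 levels under 6, close to those of the empty vector, which were between 5.16 and 5.76.

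Falls also touched genes known from lymphoid cells. Tox, a nuclear factor of developing T cells, was at 9.28 and 9.02 with delFG1 and at 8.62 and 8.22 with delFG2, and fell by 0.74 (adjusted p = 0.0288 in limma). Cd27, a receptor of lymphocytes and progenitors, fell by 0.73 (adjusted p = 0.0474 in limma). On the fixed lists, Tox was the only call among 16 T and NK lymphoid genes, with a median of 0.00, and Cd27 the only one among 20 stem and progenitor genes, with a median of -0.01. The other named falls were in Nrg2, a neuregulin growth factor (-0.76), and Gria3, a glutamate receptor subunit (-0.72). Among the rises not yet given were Kcnn3, a calcium-activated potassium channel (0.91), and Slc6a9, a glycine transporter (0.74). None of 15 B lymphoid genes and none of 17 genes for MHC class II molecules and dendritic cell markers was called.

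The Hoxa cluster holds the genes best known as lasting targets of NUP98-HOXA9. Hoxa7 was at 8.37 and 8.0 with delFG1 and at 7.53 and 7.20 with delFG2, and fell by 0.82 (SE 0.13, adjusted p = 0.0258 in limma). Hoxa5 was at 6.98 and 6.79 against 6.26 and 6.01 and fell by 0.75 (SE 0.13, adjusted p = 0.0341 in limma). In both genes the 4 groups were ordered alike and without overlap: the full-length fusion highest (9.01 and 9.0 for Hoxa7, 7.60 and 7.82 for Hoxa5), then delFG1, then delFG2, then the empty vector (6.79 and 6.93, 5.64 and 5.46). Hoxa6 and Hoxa3 had differences of -0.62 (95% interval -0.98 to -0.26) and -0.59 (-0.94 to -0.24) that did not pass, with adjusted p of 0.193 and 0.21.

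Hoxa9 itself was at 8.40 and 7.93 with delFG1 and at 8.06 and 7.59 with delFG2. The difference of -0.34 (95% interval -0.62 to -0.06, adjusted p = 0.467 in limma) did not pass, and the mutants overlapped. Both lay below the full-length fusion, at 9.41 and 9.43. Whether the Hoxa9 probe set also reads RNA of the introduced fusion was not tested. Hoxa10, Hoxa4, Hoxa2, Hoxa11 and Hoxa13 had differences between -0.11 and -0.01. Of the 10 measured Hoxa genes, 2 fell and none rose, the median was -0.23, and 8 were lower with delFG2 in both numbers. Over all probe sets, 0.133% were called lower and 29.9% were lower in both numbers. Without delFG1 array 1 or either delFG2 array, none of the 10 was called. Among 27 genes of the other Hox clusters none was called, and the largest difference among those named was in Hoxc6, at -0.48 (adjusted p = 0.0656).

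Other genes that NUP98-HOXA9 is known to raise did not pass between the mutants. Eya1, a transcriptional coactivator, was at 6.12 and 6.22 with delFG1 and at 6.11 and 6.24 with delFG2, against 9.06 and 8.98 with the full-length fusion. The difference between the mutants was 0.01 (95% interval -0.25 to 0.26). Pbx3, a HOX cofactor, was at 8.75 and 8.81 against 8.72 and 8.70, with the full-length fusion at 10.63 and 10.24, and differed by -0.07 (-0.31 to 0.17). Meis1, another cofactor, differed by 0.10 (-0.12 to 0.33) and the myeloid factor Mef2c by -0.12 (-0.35 to 0.11). The intervals of Mef2c and Meis1 reach -0.35 and 0.33, past the size of the smallest called difference, 0.29. Of 9 TALE cofactor genes and 9 genes of the network around Eya1, none was called.

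Of the 23 leukaemia self-renewal regulators only Id2, an inhibitor of helix-loop-helix factors, was called, with a rise of 0.43 (adjusted p = 0.0197 in limma). Its mutant arrays overlapped. Cdk6 differed by -0.20 (95% interval -0.34 to -0.06) and Cd34, a progenitor surface protein, by -0.31 (-0.49 to -0.13), and neither passed. Kit, Flt3, Mecom and Mycn had differences between -0.15 and 0.04, and Nup98 of -0.02 (-0.17 to 0.12). Between the full-length fusion and the empty vector Nup98 differed by 0.10 (adjusted p = 0.525 in limma). Whether the Nup98 probe set reads RNA of the introduced fusion was not tested. Csn2, the milk protein beta-casein, had one of the largest differences that did not pass. It was at 12.03 and 12.24 with delFG1 and at 11.15 and 11.01 with delFG2, a difference of -1.06 (95% interval -1.53 to -0.58, adjusted p = 0.068 in limma), while the empty vector arrays were at 6.74 and 7.22. The full-length arrays were at 9.91 and 11.06, so both delFG1 arrays and 1 of the delFG2 arrays exceeded them. None of the 5 casein genes was called, and their median was -0.18.

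**Figure D3:**
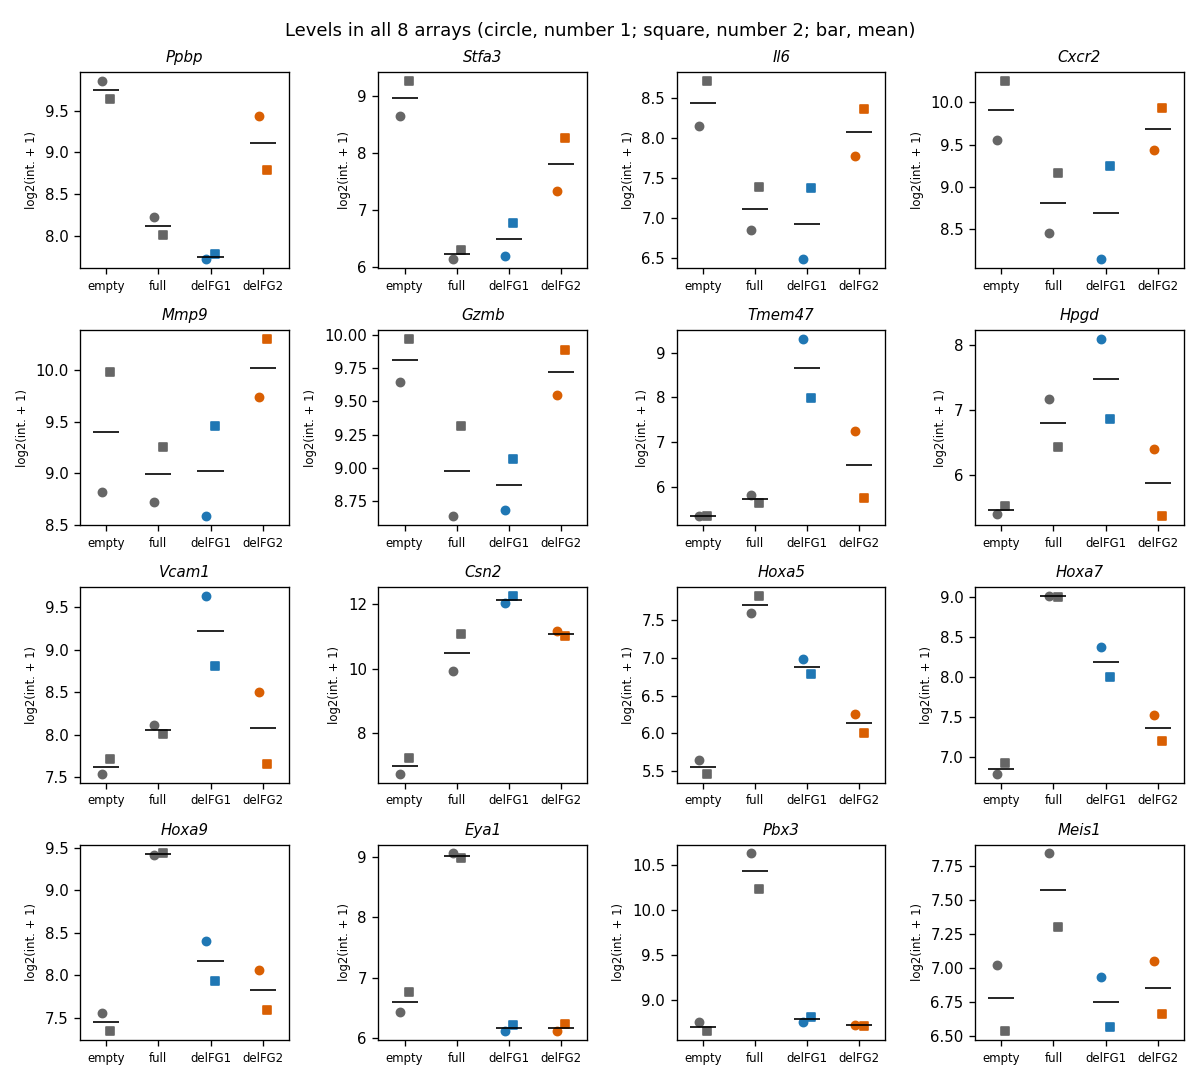
Each panel is a gene, with its level on the log2(intensity + 1) axis in the arrays of the 4 groups; circles are arrays numbered 1, squares those numbered 2 and bars group means. In Ppbp, Stfa3, Il6, Cxcr2 and Gzmb delFG1 lies near the full-length fusion and the delFG2 mean lies between those of delFG1 and the empty vector. In Mmp9 the delFG2 mean (10.02) lies above that of the empty vector (9.40). In Hoxa5 and Hoxa7 the mutants form a step between the full-length fusion and the empty vector, and in Eya1 and Pbx3 both mutants lie by the empty vector.

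The genes that separated the mutants were set against the effect of the full-length fusion. The contrast of full-length fusion and empty vector shares no array with that of the mutants, although both used the same estimate of each gene's spread, so a gene with a small spread is more readily called in both. The full-length fusion raised 475 probe sets (2.18%) and lowered 965 (4.43%) against the empty vector in the fit with the number block, and 22 (0.101%) and 5 (0.0229%) without it. Of the 965 lowered probe sets, 76 were higher and 0 lower with delFG2 than with delFG1 (7.88%), and 792 (82.1%) were higher with delFG2 in both numbers, against 24.1% of all probe sets. Their median difference between the mutants was 0.20, being 0.18 for number 1 and 0.22 for number 2. Of the 475 raised probe sets, 18 were lower and 0 higher with delFG2 (3.79%), and 319 (67.2%) were lower in both numbers, against 29.9% of all. Their median was -0.11.

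The calls between the mutants thus fell mostly on genes that the full-length fusion had moved: it had lowered 86.4% of the 88 higher calls and raised 62.1% of the 29 lower calls. Against the empty vector, the fusion-lowered genes had a median of -0.50 with the full-length fusion, -0.49 with delFG1 and -0.28 with delFG2, and the raised genes of 0.44, 0.34 and 0.23. These 3 contrasts share the empty vector arrays. Gene by gene, the mean with delFG2 lay between delFG1 and the empty vector in 80 of the 88 higher calls and in 26 of the 29 lower calls, against 9993 of all 21789 probe sets. The full-length mean was nearer to delFG1 than to delFG2 in 76 of the 88 and in 13 of the 29, against 12399 of the 21789. These positions use the same mutant arrays that chose the calls, so they are a description only. The lower calls in which it was nearer to delFG2 include Tmem47 and Vcam1, where delFG1 exceeded the full-length fusion.

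**Figure D4:**
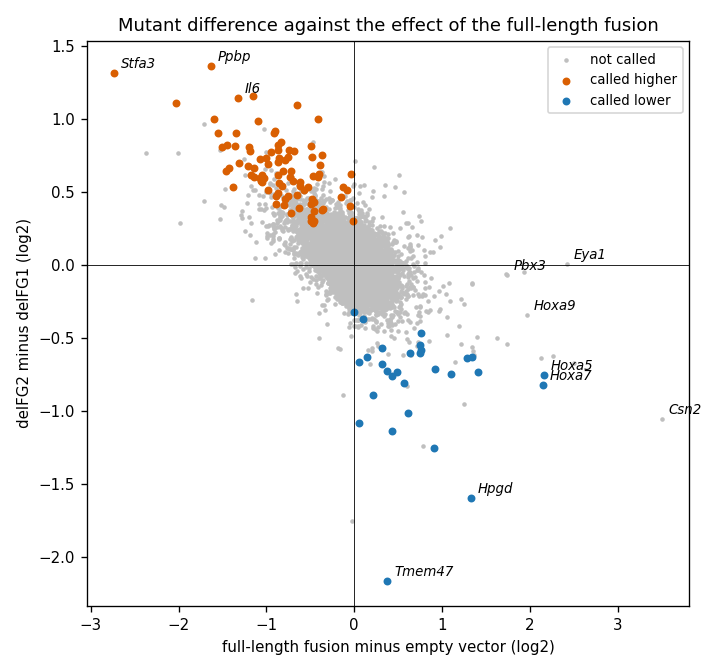
Each point is 1 probe set, with the log2 difference of full-length fusion minus empty vector on the horizontal axis and of delFG2 minus delFG1 on the vertical axis. The higher calls (orange) lie mostly to the left, among genes lower with the full-length fusion, and the lower calls (blue) mostly to the right, while Eya1 and Pbx3 lie far to the right near a mutant difference of 0.

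Genes of adhesion and matrix moved both ways: of 26 measured, the matrix proteases Mmp8 and Mmp9, the epithelial cadherin Cdh1 (0.74) and the matrix glycoprotein Thbs1 (0.33) rose and Vcam1 and Tmem47 fell, with a median of 0.02. Of 16 stroma and endothelium genes, Thbs1 rose and Vcam1 fell, and the median was -0.03. Elsewhere the lists held no call. This was so for 31 cell cycle genes (median -0.02), 16 p53 targets and cell cycle inhibitors (0.07), 26 MLL and associated chromatin genes (-0.04) and 20 growth factor and cytokine receptor genes (0.06). It was also so for 22 nucleoporin and nuclear transport genes (-0.08), 16 cholesterol synthesis genes (-0.04), 18 glycolysis and hypoxia genes (0.01) and 22 genes of the amino acid and unfolded protein responses (-0.03). Among 22 immediate-early genes none passed either, with a median of 0.10, and the early growth response factor Egr1 had a difference of 0.71 (adjusted p = 0.182). Of the nucleoporin genes 17 were lower with delFG2 in both numbers, against 29.9% of all probe sets. The amounts were small, such as -0.22 for Nup37 and -0.18 for Nup93. In the arrays numbered 2, over the 4 groups, 13 genes of this list were lower. None of the members of the 29 lists was called without the number block.

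**Figure D5:**
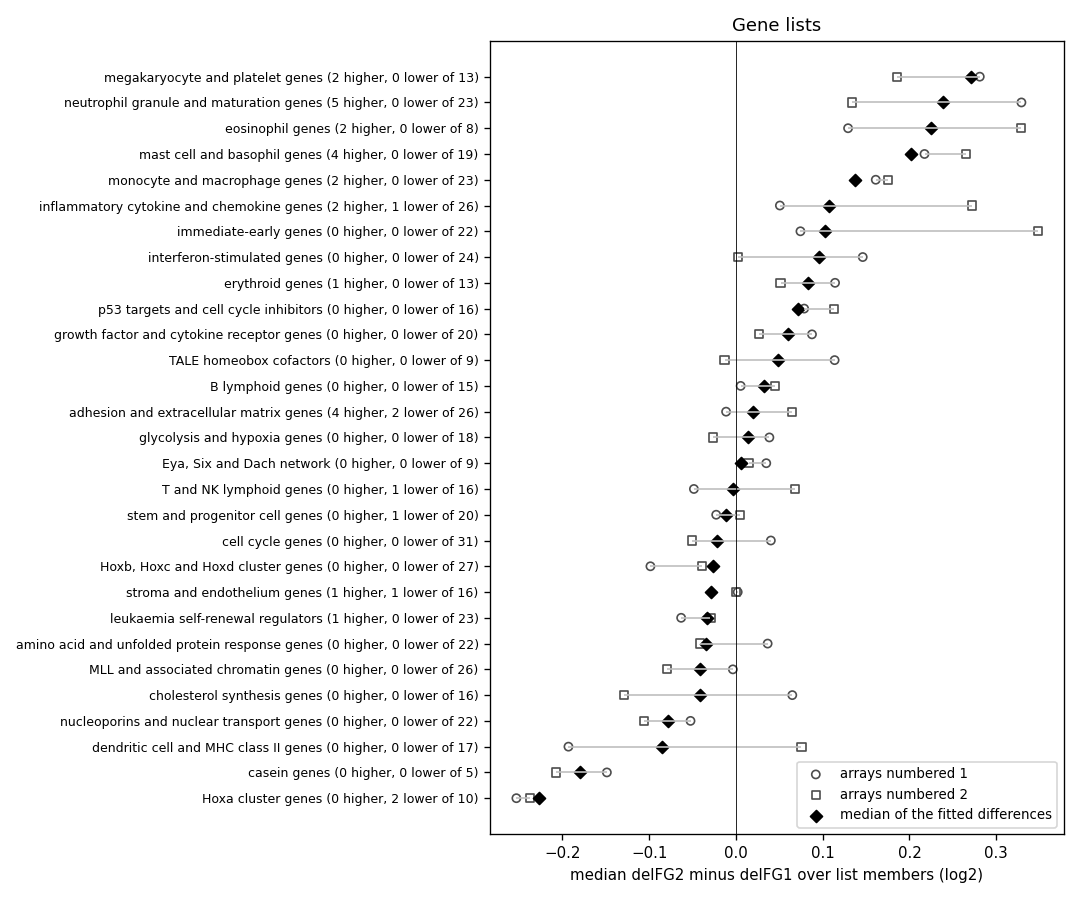
Each row is a gene list with its counts of higher and lower calls; the axis gives the median log2 difference of delFG2 minus delFG1 over its measured members, as fitted (diamond), for number 1 (circle) and for number 2 (square). Platelet, neutrophil, eosinophil and mast cell lists have medians between 0.20 and 0.27, and the Hoxa cluster has the lowest at -0.23.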

How the data were processed

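The labels describe total RNA from RNeasy columns, labelled with biotin by a whole-transcript terminal labelling kit and hybridised to 8 Affymetrix arrays. The file the authors deposited gives linear intensity values for 28853 probe sets in every array. Normalisation, background correction and summarisation were not given in the sources used here. Array medians lay between 80.67 and 83.21 and the lowest values between 18.27 and 18.67, so the arrays had been brought to a like scale, and no further normalisation was applied. The table holds no detection calls, and precision is limited by how many arrays there are.

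Values were taken as log2(intensity + 1), on which scale all differences and folds are given, and folds of dim probe sets are therefore understated. Genes were named from the platform annotation: 21789 probe sets carried 1 symbol (19938 symbols) and were tested, 1621 carried several and 5443 none. Of the tested, 21698 matched a gene number in the RefSeq table of GRCm38.p6, and 0 symbols differed. A gene with several probe sets was named by the one with the highest mean over the 8 arrays.

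limma 3.58.1 in R 4.3.3 (lmFit, eBayes with an intensity trend) was fitted to all 8 arrays with 4 group means and the array number as a block, leaving 3 residual and 7.78 prior degrees of freedom (4 and 4.62 without the block). P-values are two-sided and Benjamini-Hochberg adjusted over all tested probe sets, with a threshold of 0.05. The numbers were taken to pair the arrays because same-numbered arrays deviated together: the correlation of deviations from the group means was 0.572 between the mutants and 0.401 to 0.64 over the 6 pairs of groups. The labels do not say what a number stands for. With 2 arrays in a group these deviations are single differences, and the rule for the comparison also took the number as the pair.

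Named genes were the calls with non-overlapping mutant arrays and the greatest change (15 in each direction), a fixed set of fusion-related genes, and for each of 29 gene lists up to 4 members with the smallest p. Predicted genes, small RNA genes and genes of olfactory, vomeronasal and taste receptors were skipped in that ranking. Genes outside this rule (Itgam and those in the closing section) were chosen after their values were seen. The comparison, members and lists were chosen with earlier results of these data known. Lists are described by counts and medians, without a test. Alternatives were the fit without the block, the mutant arrays alone, other scalings and pseudocounts, a filter on dim probe sets, other variance settings and leaving out each array. The fit was tested on simulated data.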

Additional observations from a re-analysis of the deposited data

How the results depend on the processing

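Without the replicate block, limma called 0 higher and 0 lower probe sets between the mutants, against 88 and 29 with it. Every group holds 1 array of each number, so the differences are the same in both fits and only their spread changes. Of the 117 called probe sets, 73 had an unadjusted p under 0.05 in limma without the block. The 4 mutant arrays alone gave 190 higher and 68 lower with the replicate block and 0 and 0 without it. A fit with no intensity trend called 2 higher and 0 lower. Quantile normalisation lowered the falls to 19, with 60 rises. Median-centred arrays (84 and 31), a pseudocount of 16 (79 and 23) or none (89 and 30), a mean log2 intensity of at least 6 (117 and 26) and a robust trend (97 and 26) stayed within 1.5 times of both counts. Leaving out each array in turn gave 1 to 250 higher and 0 to 63 lower calls, the low ends without delFG1 array 1. The median difference between the mutants at fusion-raised genes was -0.51 when the list came from the fit without the replicate block (22 genes), and at fusion-lowered genes 0.58 (5 genes). At fusion-lowered genes it was 0.17 with median-centred arrays and 0.22 with no trend. Leaving out each array gave -0.229 to -0.0292 at raised and 0.12 to 0.35 at lowered genes. No result changed direction under these alternatives where it was called. For single genes, leaving out the block could not change the direction. Causes of these shifts were not tested.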

Other observations

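The calls held further myeloid genes that were chosen here after their values were seen. With delFG2 the mitochondrial arginase Arg2 rose by 0.90, the ectoenzyme Bst1 by 0.81, the inhibitory receptor Siglece by 0.82, the phospholipase-like Plbd1 by 0.78 and the tyrosine kinase Fgr by 0.65 on the log2 scale. Proteases and their receptors rose too: the urokinase gene Plau by 0.58, its receptor Plaur by 0.39, the metalloprotease Adam8 by 0.54, the cathepsin gene Ctsk by 0.54 and the convertase gene Furin by 0.38. Anxa1, a lipid-binding protein of granulocytes, rose by 0.56 and S100a6, a calcium-binding protein, by 0.51. The adhesion receptor gene Adgrl2 rose in 4 of its 8 probe sets, by 0.60 to 0.68, while the other 4 had differences of 0.11 to 0.60 that did not pass. Among falls, Rhoj, a small GTPase, fell by 0.63, the pseudoreceptor Bambi by 0.58, the fucosyltransferase gene Fut8 by 0.46 and Nfxl1 in 2 probe sets by 0.60 and 0.55. Itgad, an integrin chain, fell by 0.57 in 1 probe set, while its brighter probe set had a difference of 0.05. Adjusted p-values of all these calls in limma were between 0.00388 and 0.0493. The mutant arrays overlapped in Arg2, Bst1, Siglece, Plbd1, Fgr, Plaur, Furin and S100a6, and not in the other calls of this paragraph.

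Called genes that lie within 5 coding genes of each other in RefSeq order included Ppbp and Pf4 (1 apart), Stfa2 and Stfa3 (1), Gstt3 and Gstt1 (1), Hoxa5 and Hoxa7 (2) and Ear6 and the zinc transporter gene Slc39a2 (2), each moving one way. Mpeg1 (0.36) and Glyat (-0.89), 4 apart, moved in opposite directions.

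The 250 bases before the gene start were searched on both strands for 3 fixed motifs. The C/EBP letters TTGCNNAA were found in 15 of 67 promoters of higher genes (22.4%) and 2 of 21 of lower genes (9.52%), against 1351 of 15614 of all genes tested (8.65%). The higher genes with a match included Il6, Mmp8, Pf4, Csta3, Fcer1a and Cd68. The HOX-PBX letters TGATNNAT were found in 6 of 67 (8.96%), 2 of 21 (9.52%) and 1002 of 15614 (6.42%), and the PU.1 letters GAGGAAGT in 3 of 67 (4.48%), 0 of 21 and 338 of 15614 (2.16%). A match is a description of letters, and the shares were not tested.

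Of 1621 probe sets with several symbols, 3 were called higher and 0 lower with delFG2 when limma was fitted over the whole table, and of 5443 with no symbol 2 and 0. The differences of the 3 were 0.76, 0.85 and 0.97 on the log2 scale. They cannot be given to single genes and are in none of the list counts.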
